A study of Homo sapiens with 15 samples.

Results

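Loci were examined at which GATA2 or RUNX1 had some of its strongest peaks of the RAD21 Q592* cells that were not called in the wild-type (WT) cells: PEAR1, F2RL3, FSCN1, INF2, SGK1 and FAM8A1, 6 in all. They were chosen from the deposited GATA2 and RUNX1 peak values themselves, as 6 windows of 40 to 250 kb on the genome build hg19 that carry the names of these genes. A peak belongs to a window when its summit lies in it, and 81 of the 198298 peaks in the 6 peak lists do. Because the GATA2 and RUNX1 values chose the windows, those values are described and not tested. SMC3 played no part in the choice.

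The samples are ChIP-seq libraries of TF-1, a human erythroleukemia cell line grown with cytokines, that was transduced with a doxycycline-inducible vector for RAD21 carrying the stop mutation Q592*, or for WT RAD21. Both lines received doxycycline for 6 days, so both carry an induced RAD21 vector, and the labels do not say whether a line is a single clone. Libraries number 2 for GATA2, 1 for RUNX1, 2 for SMC3 and 2 for input in Q592*, and 2 for each of these in WT. Each line and target is represented by 1 list, pooled over its libraries where there are 2. The RUNX1 list of Q592* rests on 1 library, so each RUNX1 comparison below sets 1 library against a pool of 2. No spread between replicates can be seen, the lines could not be tested against each other, and the intervals below cover counting error only. Recovered depths were 93.4 to 107 M ChIP reads in Q592* (M stands for 1000000) and 103.5 to 107.5 M in WT.

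GATA2 and RUNX1 are DNA-binding factors that control genes in blood progenitors, and both also act in the megakaryocyte lineage, which makes platelets. RAD21 and SMC3 are subunits of cohesin, a ring that holds DNA and forms chromatin loops. PEAR1 encodes a receptor that signals when platelets touch each other, and F2RL3 encodes PAR4, a thrombin receptor of platelets. FSCN1 encodes fascin, which bundles actin filaments, and INF2 a formin that assembles and severs them. SGK1 encodes a kinase induced by serum and glucocorticoids that regulates ion channels. FAM8A1 encodes a membrane protein of the endoplasmic reticulum that takes part in protein degradation there. Gene positions on hg19 were not used here, so no peak is placed in a promoter, exon or intron.

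Promoter sequences from RefSeq (build GRCh38.p14) were found for 5 of the 6 genes, as 10 entries, FSCN1 having none. Each was read from 250 bases before the start of transcription to 30 after it. They are shown where they hold a core motif of either factor, since these are the letters each factor is known to read. The letters searched for GATA were AGATAA, or else TGATAA, or else AGATAG, or else TGATAG. Those searched for RUNX were TGTGGT, or else TGCGGT. Both strands were read, and the matches of the 10 entries did not overlap. Of the 10 entries 1 held a GATA motif and 2 held a RUNX motif, while 24.05% and 18.3% of all 35116 promoter entries did. Capitals mark the matches, and each line runs 5′ to 3′ along the gene.
FAM8A1, chr6:17600052-17600331, + strand: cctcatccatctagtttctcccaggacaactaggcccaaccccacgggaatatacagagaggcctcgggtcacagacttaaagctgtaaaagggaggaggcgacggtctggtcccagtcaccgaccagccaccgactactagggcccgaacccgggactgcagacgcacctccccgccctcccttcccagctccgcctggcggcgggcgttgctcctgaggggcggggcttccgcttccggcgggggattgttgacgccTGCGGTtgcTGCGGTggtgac
F2RL3, chr19:16888749-16889028, + strand: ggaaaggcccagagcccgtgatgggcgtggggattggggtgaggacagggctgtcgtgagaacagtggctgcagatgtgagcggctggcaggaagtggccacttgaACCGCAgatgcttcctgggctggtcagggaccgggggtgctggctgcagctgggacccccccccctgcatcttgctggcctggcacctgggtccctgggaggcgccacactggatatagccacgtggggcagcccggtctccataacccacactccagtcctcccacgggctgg
SGK1, chr6:134174837-134175116, - strand: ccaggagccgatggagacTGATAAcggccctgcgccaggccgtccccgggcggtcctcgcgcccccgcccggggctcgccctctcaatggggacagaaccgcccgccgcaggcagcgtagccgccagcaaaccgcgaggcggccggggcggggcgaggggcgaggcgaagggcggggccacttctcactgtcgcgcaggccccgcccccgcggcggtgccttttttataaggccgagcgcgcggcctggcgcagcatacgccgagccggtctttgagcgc
FAM8A1 held TGCGGT starting at the transcribed bases 10 and 19. F2RL3 held ACCGCA, the same motif on the other strand, 144 bases before its start, and SGK1 held TGATAA 232 bases before the start of this 1 of its 3 entries. PEAR1 and INF2 held neither motif in these windows. The positions are those of another build than the peaks, so these sequences cannot be set against the peak positions below, and a match of letters is not a binding site.

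Strength is given as summit reads per M: the number of ChIP reads over the summit, recovered from the deposited fold enrichment and p-value, per M ChIP reads of that list. The local background is the MACS2 background at the summit, in multiples of its genome-wide value in the same list. Where WT has no peak, the weakest WT peaks of that target on a background within 20% of the one in Q592* show where WT calls began.

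PEAR1 carried 1 GATA2 peak in Q592* and none in WT. The Q592* peak spanned 526 bp of chromosome 1 (156864801 to 156865326) with 271 reads over its summit, or 2.56 per M (95% Poisson interval 2.26 to 2.88), and a deposited −log10 q of 139.5. On a like background, 3.43 times the genome-wide value, WT GATA2 calls began at 0.363 per M, which is 7.05 times less. The nearest WT GATA2 summit was 31.99 kb away, and RUNX1 was not called in the window in either line.

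F2RL3 had 2 GATA2 and 3 RUNX1 peaks, all called in Q592* and none in WT. GATA2 and RUNX1 had nearly the same height at one place on chromosome 19: GATA2 from 16999393 to 16999976 with 3.13 per M (2.80 to 3.49), and RUNX1 from 16999482 to 16999940 with 3.08 per M (2.76 to 3.43). Their summits lay 85 bp apart. The local background there was the highest among these leading peaks, at 9.14 (GATA2) and 10.7 (RUNX1) times the genome-wide value, and WT calls on a like background began at 0.781 and 0.916 per M. The other GATA2 peak had 1.53 per M, and the other RUNX1 peaks had 1.94 and 1.48 per M. None of these 3 overlapped a peak of the other factor.

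FSCN1 combined a GATA2 peak called in Q592* alone with a RUNX1 peak called in both lines. The GATA2 peak of the Q592* cells (chromosome 7, 5631124 to 5631458) had 2.21 per M (1.93 to 2.51). The RUNX1 summit lay 34 bp from it and had 2.66 per M in Q592*, against 1.23 per M in WT, a log2 ratio of 1.11 (95% interval 0.81 to 1.42). That ratio was above those of 95.5% of the RUNX1 regions called in both lines. The local backgrounds differed between the lines at this RUNX1 peak, with 3.39 in Q592* and 7.39 in WT. On a background like that of the Q592* GATA2 peak, 2.94, WT GATA2 calls began at 0.307 per M, 7.20 times below it. On a background within 20% of 7.39 they began at 0.642 per M, 3.44 times below it. Which of these applies to GATA2 here was not tested. A further 2 GATA2 peaks, with 0.547 and 0.783 per M, were also called in Q592* alone, and 1 GATA2 region in both lines had 0.661 per M in Q592* and 0.577 per M in WT.

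INF2, the other actin regulator, had GATA2 and RUNX1 peaks in Q592* alone with summits 29 bp apart. GATA2 (chromosome 14, 105167098 to 105167389) had 2.44 per M (2.16 to 2.76) and RUNX1 (105167132 to 105167333) had 1.04 per M (0.855 to 1.25). The RUNX1 peak was lower than the leading ones of F2RL3 and FAM8A1, at rank 657 by −log10 q of the 7650 RUNX1 regions called in Q592* alone. Its height lay between their median of 0.515 and their 95th percentile of 1.19 per M. No WT peak of either factor was near: the closest WT summits were 215.6 kb (GATA2) and 776.8 kb (RUNX1) away.

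FAM8A1 led the RUNX1 ranking with no GATA2 at the same place. RUNX1 (chromosome 6, 17600395 to 17600746) had 1.91 per M (1.66 to 2.19) in Q592*, on a background of 3.19 on which WT RUNX1 calls began at 0.344 per M. The nearest GATA2 summit of Q592* was 14395 bp away. GATA2 gave only weak and scattered peaks in this window, with 0.434 and 0.425 per M in Q592* alone and 0.223 and 0.279 per M at 2 other places in WT alone.

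**Figure D1:**
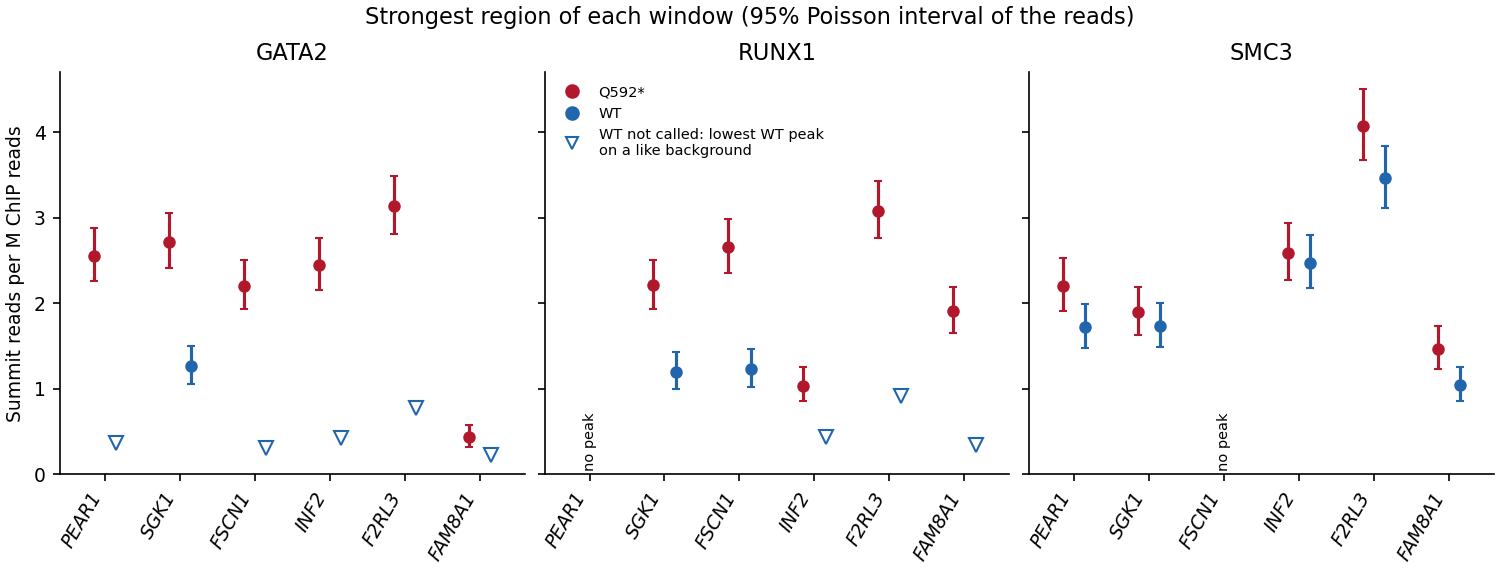
The highest region of each window for GATA2, RUNX1 and SMC3, as summit reads per M ChIP reads (y axis) by gene (x axis). Circles show Q592* (red, left) and WT (blue, right) with 95% Poisson intervals of the read counts, and open triangles show the lowest WT peak on a background within 20% where WT had no peak. The SGK1 value for GATA2 is a region called in both lines, with 2.72 in Q592* and 1.26 in WT, and SMC3 was called in both lines in every window that had it.

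SGK1 lay in the widest window and had peaks of all 3 targets in both lines. Of its 14 GATA2 regions, 9 were called in both lines and 5 in Q592* alone. The strongest of the 5 (chromosome 6, 134496112 to 134496386) had 2.57 per M (2.27 to 2.89), while the other 4 had 0.406 to 0.481 per M. The nearest WT GATA2 summit to the strongest was 20.69 kb away, and WT calls on a like background, 4.26, began at 0.400 per M.

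Other GATA2 peaks of the window were called in both lines with greater heights in Q592*. The highest had 2.72 per M in Q592* and 1.26 per M in WT (log2 ratio 1.10, 0.80 to 1.41), and the neighbouring one had 1.87 and 0.763 per M (1.29, 0.91 to 1.68). RUNX1 coincided with the highest GATA2 peak and had 2.21 per M in Q592* and 1.20 per M in WT (log2 ratio 0.88, 0.56 to 1.20). SMC3 at the same place was low in both lines, with 0.535 per M in Q592* and 0.454 per M in WT. The place thus held all 3 targets in both lines, unlike the region called in Q592* alone, which had no RUNX1.

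**Figure D2:**
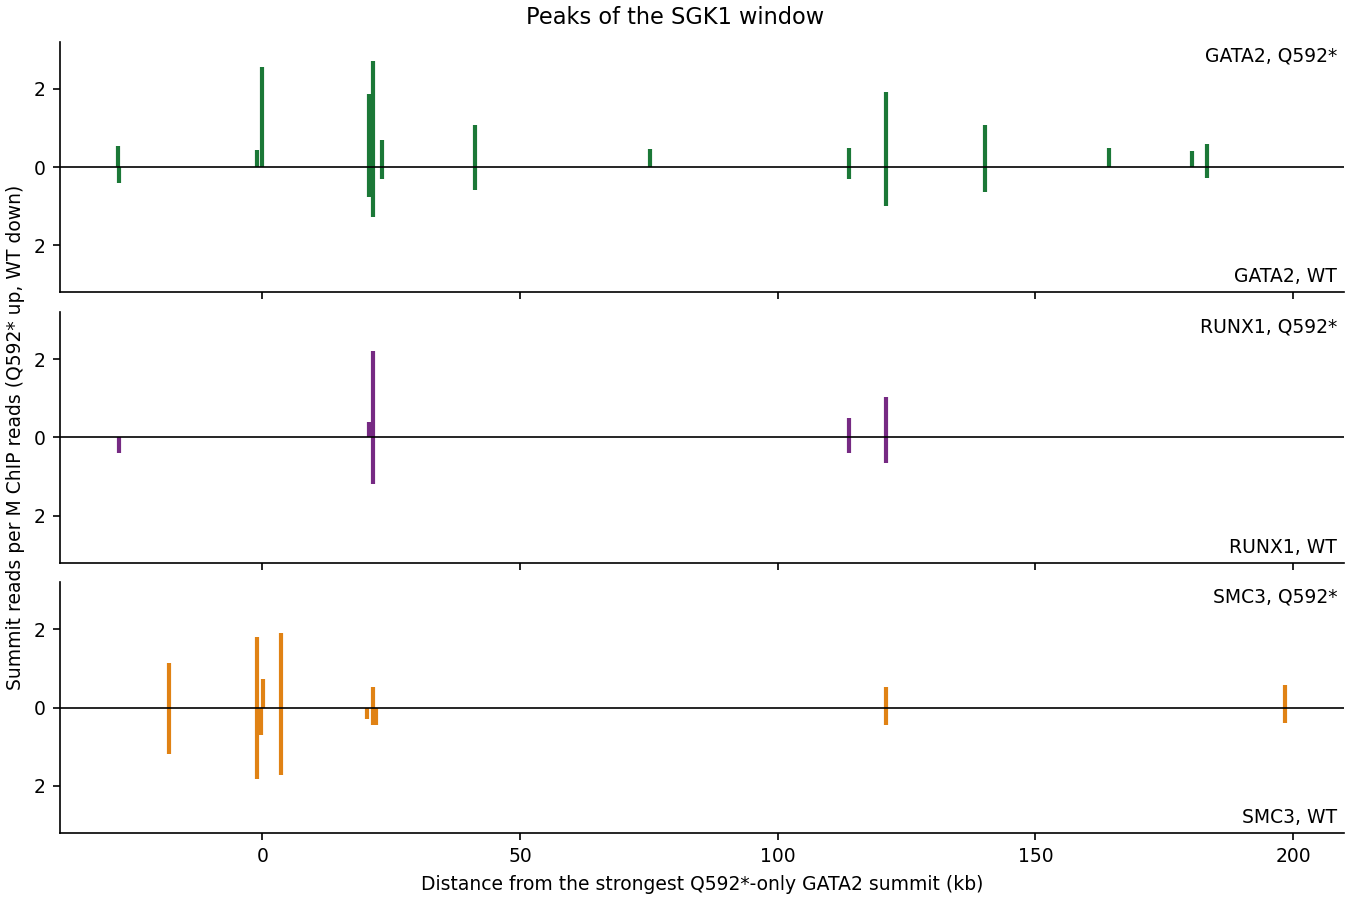
Summit reads per M ChIP reads (y axis, Q592* up and WT down) of every GATA2, RUNX1 and SMC3 peak in the SGK1 window, by distance in kb from the strongest GATA2 summit called in Q592* alone (x axis). Most GATA2 lines have a shorter WT counterpart, while the one at 0 kb, with 2.57 per M, has none.

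Over the 6 windows the GATA2 lists held 24 peaks in Q592* and 12 in WT, and the RUNX1 lists 10 and 5. Joined by overlap, 14 of the 26 GATA2 regions were called in Q592* alone, 10 in both lines and 2 in WT alone. Genome-wide 40.1% of the GATA2 regions were of Q592* alone and 7.96% of WT alone. For RUNX1 the counts were 6, 4 and 1 of 11, against a genome-wide 44.4% of Q592* alone and 9.59% of WT alone. As the windows were chosen for such regions, nothing is read from these counts. With both lists of a target cut to equal length, 7 GATA2 regions were of Q592* alone and 5 of WT alone. The genome-wide shares above are those of the uncut lists and cannot be set against these counts.

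The windows were chosen for strong regions called in Q592* alone, so great heights of the leading regions follow from the choice. GATA2 regions called in Q592* alone had a median of 0.415 per M and a 99th percentile of 1.41, while those of PEAR1, SGK1, FSCN1, INF2 and F2RL3 had 2.21 to 3.13. Heights of 2 per M or more were reached by 4751 GATA2 regions in Q592*, of which 63 (1.33%) had no WT peak, among them these 5. RUNX1 regions called in Q592* alone had a median of 0.515 and a 99th percentile of 1.79 per M, below FAM8A1 at 1.91 and F2RL3 at 3.08. The leading RUNX1 region of INF2, at 1.04, lay under that 99th percentile.

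"Strongest" depends on the measure. By the deposited −log10 q the GATA2 regions of PEAR1, SGK1, FSCN1, INF2 and F2RL3 ranked 1, 2, 3, 5 and 8 of 25653, but by summit reads per M they ranked 32, 31, 43, 34 and 13. The RUNX1 regions of FAM8A1 and F2RL3 ranked 1 and 2 of 7650 by −log10 q, and 57 and 12 by summit reads. Among the next regions in rank, which lie in none of the windows, the GATA2 region at rank 4 (chromosome 2, 26991873 to 26992165) had a −log10 q of 118.4 and 2.82 per M, and rank 6 (chromosome 2, 28578452 to 28578724) had 107.7 and 2.62 per M. For RUNX1, rank 3 (chromosome 10, 73508561 to 73508890) had 83.8 and 2.49 per M. These values are close to those of the chosen regions: INF2 had a −log10 q of 111.0 for GATA2 and F2RL3 one of 89.4 for RUNX1.

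**Figure D3:**
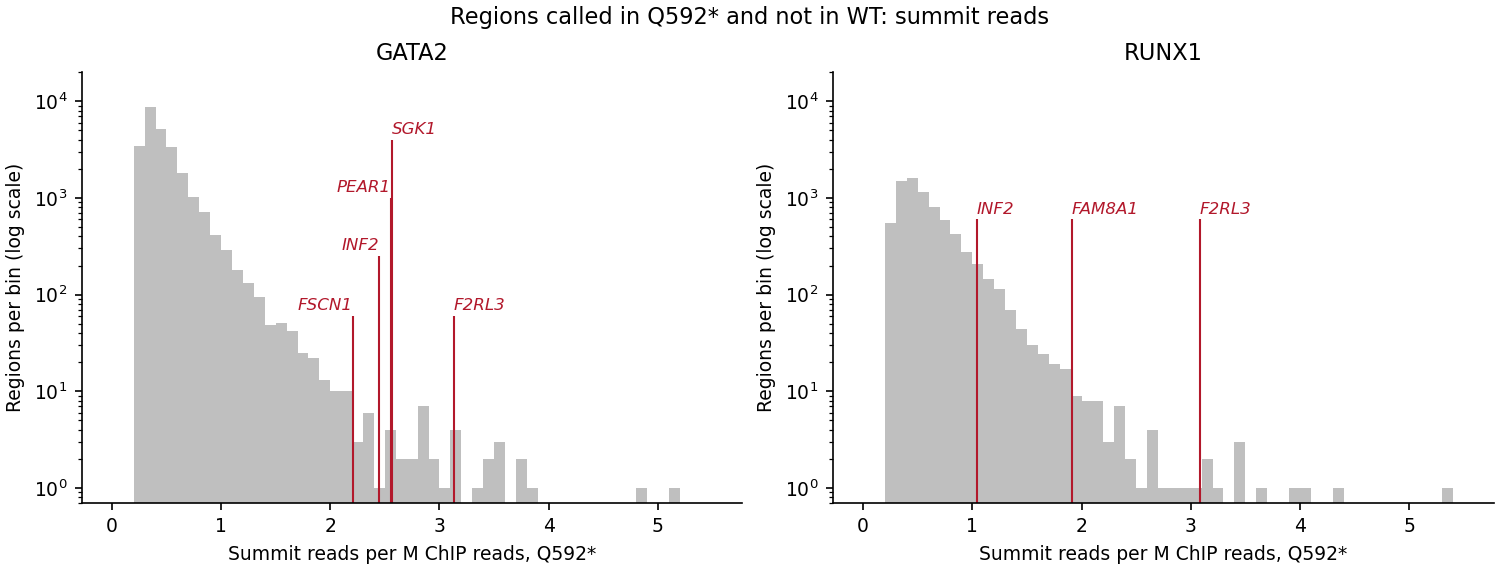
Number of GATA2 (left) and RUNX1 (right) regions called in Q592* and not in WT (y axis, log scale) by summit reads per M ChIP reads in Q592* (x axis, bins of 0.1). Red lines mark the leading region of each named window: they lie at 2.21 to 3.13 for GATA2, while INF2 for RUNX1 lies at 1.04.

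The regions called in both lines were also higher in Q592* per M reads, as most such regions were genome-wide, but not all of them by the deposited folds. All 10 such GATA2 regions were higher in Q592*, by a median log2 ratio of 0.93 and a range of 0.20 to 1.29. Genome-wide 98.5% of such GATA2 regions were higher in Q592*, with a median of 0.81. In 8 of the 10 the interval of the ratio lay above 0. By the deposited fold enrichments, which divide by the local background, 7 of the 10 were higher in Q592* with a median log2 ratio of 0.44, against 80.6% and 0.48 genome-wide. The 3 that were lower on that scale all lay at SGK1, with log2 ratios of -0.28, -0.16 and -0.28. All 4 RUNX1 regions called in both lines were higher too, by a median of 0.77 and a range of 0.27 to 1.11, against 97.4% and a median of 0.65 genome-wide. By the deposited folds 3 of the 4 were higher, with a median of 0.37, against 73.2% and 0.33 genome-wide, and 1 region at SGK1 was lower with a log2 ratio of -0.07. Of all 33241 GATA2 regions called in both lines, 99% had a ratio below 2.96 and none exceeded 4.72. A ratio needs a WT call, so this class leaves out regions too low in WT to be called.

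**Figure D4:**
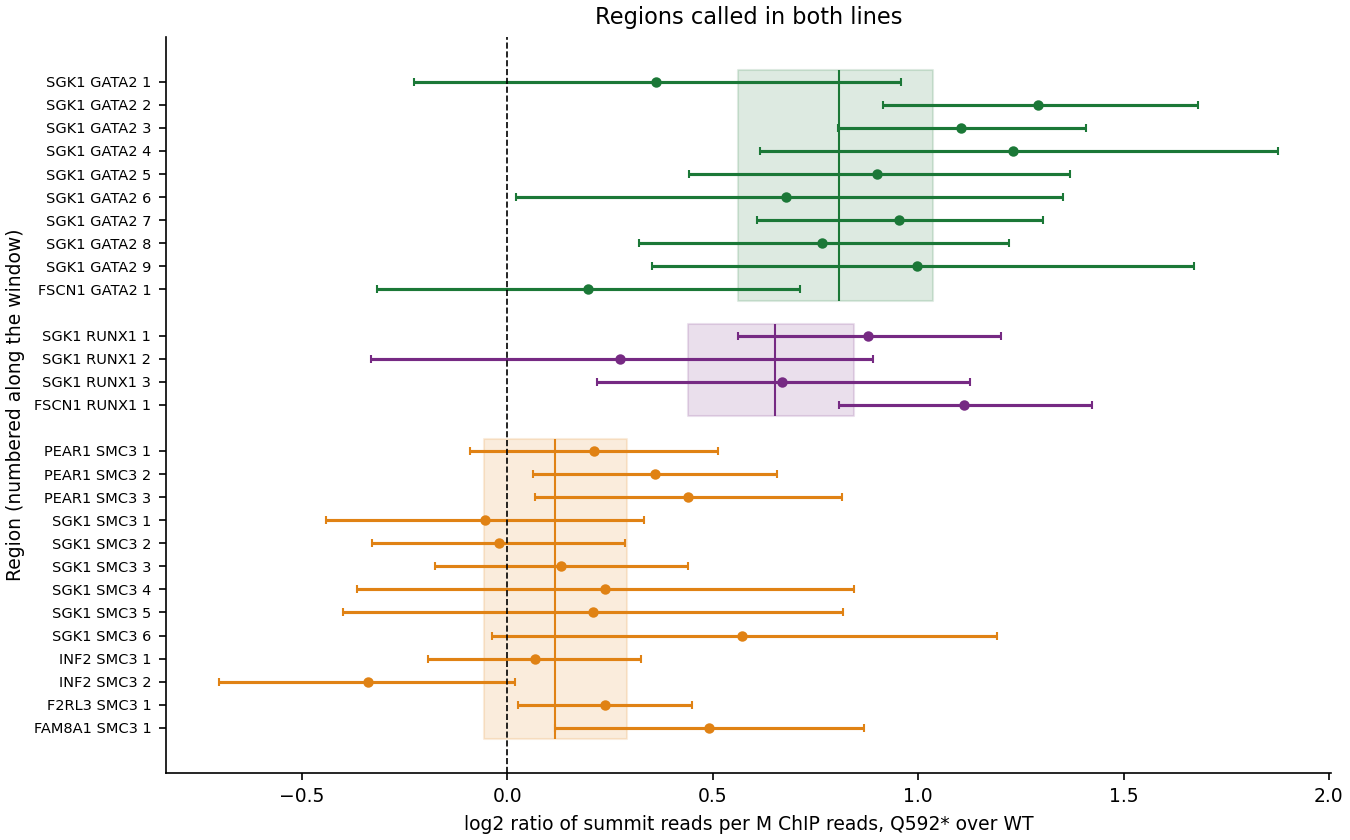
The log2 ratio of summit reads per M ChIP reads, Q592* over WT (x axis), with 95% counting intervals, for each region of the windows called in both lines (y axis, numbered along the window). Vertical lines and bands show the genome-wide median and quartiles per target. GATA2 and RUNX1 points lie to the right of 0 on this scale (by the deposited folds 7 of 10 and 3 of 4 do), and SMC3 points lie around it.

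SMC3, which the choice of windows did not use, was mostly called in both lines. Of 16 SMC3 regions 13 were of both lines, 2 of WT alone and 1 of Q592* alone, against a genome-wide 27.6% of WT alone and 6.84% of Q592* alone. Those 3 exceptions all lay at SGK1. Genome-wide the share of WT alone was 0.926% among SMC3 regions with at least 1 read per M in WT. That level was reached by 10 of the window regions. The FSCN1 window had no SMC3 peak in either line, and the nearest one to its leading GATA2 summit was 27.9 kb away.

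The 13 SMC3 regions of both lines had log2 ratios of -0.34 to 0.57. PEAR1 had 2.02, 2.20 and 1.46 per M in Q592*, against 1.75, 1.72 and 1.07 per M in WT, at 3 places. F2RL3 had 4.08 per M in Q592* and 3.46 per M in WT, the highest SMC3 values of the 6 windows, and FAM8A1 had 1.47 and 1.04 per M. INF2 had 2.59 and 1.20 per M in Q592*, against 2.47 and 1.52 per M in WT. Per M reads, 10 of the 13 were higher in Q592* (67.7% genome-wide) with a median log2 ratio of 0.21, and in 4 the interval lay above 0, but on the scale of the genome-wide average coverage 4 of the 13 were higher (28.7% genome-wide) and the median was -0.05 (-0.15 genome-wide), so no direction is given.

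At SGK1 the strongest GATA2 region called in Q592* alone coincided with an SMC3 peak also called in Q592* alone. That SMC3 peak (134496185 to 134496389) had 0.738 per M on a background of 4.28, on which WT SMC3 calls began at 0.377 per M, and its summit lay 46 bp from that of GATA2. The closest WT SMC3 summit was 329 bp from the GATA2 summit, in a peak that ended at 134496019. That WT peak had 0.705 per M and a −log10 q of 10.6, while the SMC3 peak of Q592* alone had a −log10 q of 9.09 and is lost when a value of at least 10 is asked for. The WT peak was joined by overlap with a neighbouring SMC3 region of both lines, whose highest summits had 1.81 per M in Q592* and 1.84 per M in WT (log2 ratio -0.02, -0.33 to 0.29).

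Elsewhere the leading GATA2 and RUNX1 regions did not overlap SMC3, as most peaks of these factors did not over the whole Q592* lists. In Q592* the distance from the leading summit to the nearest SMC3 summit was 2.81 kb at PEAR1, 7.90 kb at INF2, 11.0 kb at F2RL3 (from the RUNX1 summit) and 15.97 kb at FAM8A1. Of all 14 GATA2 regions called in Q592* alone, 3 overlapped an SMC3 peak of Q592*, and of the 6 RUNX1 regions none did. Over the whole Q592* lists 11.7% of the GATA2 peaks and 25.1% of the RUNX1 peaks overlapped SMC3, and with 6 RUNX1 regions a count of 0 is not set apart from that share. The whole lists also hold the peaks called in both lines, so these shares are not of regions of Q592* alone.

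**Figure D5:**
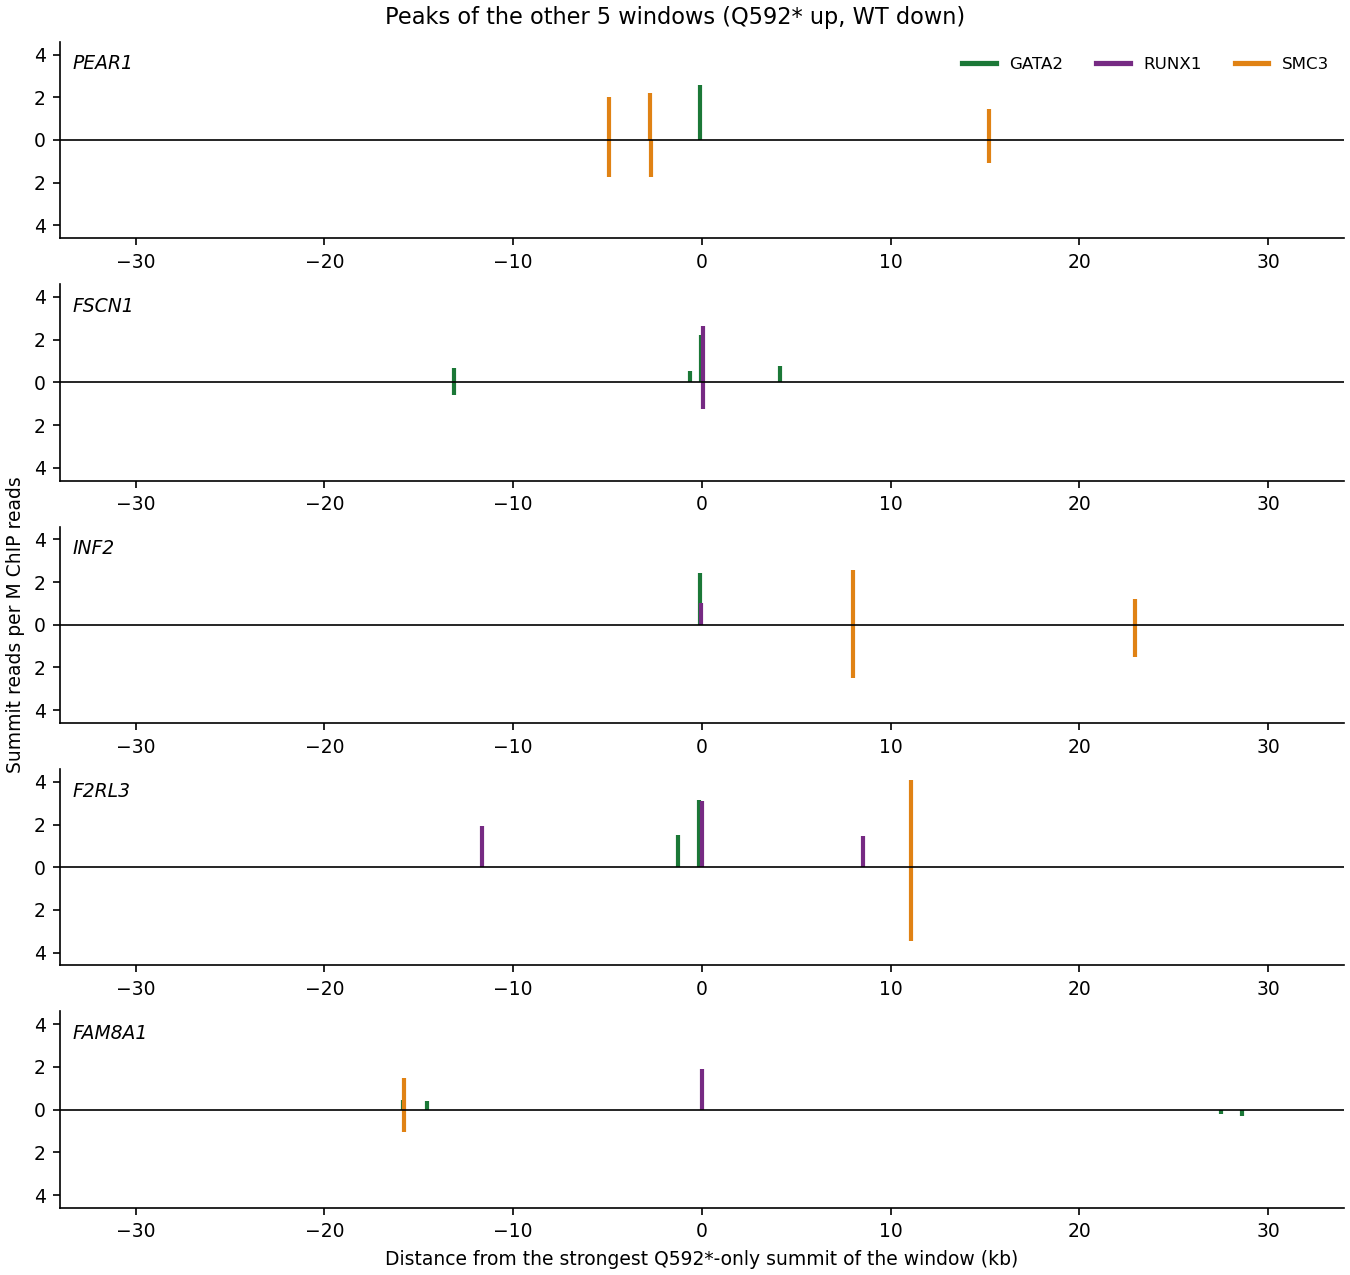
Summit reads per M ChIP reads (y axis, Q592* up and WT down) of all GATA2, RUNX1 and SMC3 peaks in the PEAR1, FSCN1, INF2, F2RL3 and FAM8A1 windows, by distance in kb from the leading GATA2 or RUNX1 summit (x axis); colours are drawn slightly apart so that coinciding summits can be seen. Green and purple lines at 0 kb point up only, save RUNX1 at FSCN1 with 1.23 per M in WT, while each orange SMC3 line has a WT counterpart.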

How the data were processed

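GATA2, RUNX1 and SMC3 ChIP-seq was done on 11 ChIP and 4 input libraries of TF-1. The tools were MACS2, Bowtie2 and Picard on hg19, per the submitters' processing notes. Versions, settings and the input behind each call are not stated in those notes. The 6 deposited lists give, per peak, a fold enrichment (ratio of ChIP pileup to local background), a −log10 p-value, a −log10 q-value, a summit and a score, which is 10 times the −log10 q and was not used. Since the word merge stands in all peak names, a list is treated as 1 pool of its libraries, though RUNX1 in Q592* has just 1 library.

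ChIP reads and background at each summit were recovered from the deposited fold and −log10 p, as MACS2 computes both from whole reads and a Poisson background: 100% of peaks gave whole reads at a tolerance of 0.002 in −log10 p, while at most 1.63% did with the worth of a read set 3% wrong. The steps were tested on simulated peaks. Totals assume an effective genome of 2700000000 bp and fragments as long as the narrowest peak (157, 143 and 151 bp for GATA2, RUNX1 and SMC3 in Q592*; 150, 139 and 126 bp in WT). Peaks overlapping by 1 bp formed regions. Intervals are 95% (exact Poisson for heights, exact binomial for ratios, Wilson for shares), and cover counting error only. Peaks under a −log10 q of 2 are not in the lists.

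The 6 genes, their windows and all measures were chosen with earlier results of these data known. Named are the 6 genes and, as regions, the leading peaks of each window and the next ones outside. Family genes planned as a comparison need hg19 gene positions and were not run. Alternatives were stricter calls (−log10 q of 10 or more), lists cut to equal lengths, reciprocal overlap of 50%, summits within 200 bp and windows widened by 20 kb. Software was scipy 1.17.1, matplotlib 3.10.9, pandas 2.3.3 and numpy 2.4.6 under Python 3.11.15.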

Additional observations from a re-analysis of the deposited data

How the results depend on the processing

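No paired analysis was possible because each list covers all libraries of its line and target and carries no replicate numbers. For the same reason no library could be left out. Of 84 alternative values 63 stayed close to the reported ones (counts within 1.5 times, shares within their interval, log2 ratios within that same factor), 19 moved and 2 reversed. The leading GATA2 regions of PEAR1, SGK1, FSCN1 and INF2 and the leading RUNX1 regions of F2RL3 and FAM8A1 were of Q592* alone under the 4 alternatives that change thresholds, list lengths or overlap. That outcome was fixed beforehand and tests nothing. None of the 4 adds a GATA2 or RUNX1 peak in WT. The nearest WT summit of the same target lay 13.1 kb away at FSCN1 and further away at the others. With a −log10 q of at least 10, GATA2 regions numbered 8 (Q592* alone), 0 (WT alone) and 6 (both), from 14 GATA2 peaks in Q592* and 6 in WT; no RUNX1 region was of WT alone (0) and WT had 3 RUNX1 peaks; SMC3 had 0 of Q592* alone and 1 of WT alone, and SMC3 overlapped 0% of the GATA2 and 0% of the RUNX1 peaks of Q592*. Equal list lengths gave 7 GATA2 regions of Q592* alone, 5 of WT alone and 14 Q592* peaks, 2 RUNX1 regions of WT alone and 1 SMC3 region of WT alone. Reciprocal overlap gave 2 RUNX1 regions of WT alone, and 2 SMC3 regions of Q592* alone and 4 of WT alone. Genome-wide shares were not worked out under these alternatives, so nothing is read from these counts. The SMC3 median log2 ratio became -0.19 with the deposited folds and -0.051 over genome-wide average coverage, which was added after the data were seen. The assumed fragment length enters the values per M reads and neither of these. Where WT had no leading peak, heights under the 0.307 to 0.916 reads per M at which WT calls began were not detectable.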

Other observations

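Most RUNX1 peaks overlapped GATA2, in the windows as over the whole lists. Of the RUNX1 peaks in the windows, 7 of 10 overlapped GATA2 in Q592* and 4 of 5 in WT, and over the whole lists 74.9% and 75.02% did. Both factors chose the windows, so nothing is read from these counts. SMC3 overlapped 5 of the 24 GATA2 peaks in Q592* (20.8%) and 2 of the 12 in WT (16.7%), while over the whole lists the order was the other way, with 11.7% in Q592* and 26.3% in WT. The 5 narrower windows, without SGK1, held 12 GATA2 regions, 9 of them of Q592* alone (40.1% of all GATA2 regions were). The windows were chosen for such regions, so nothing is read from this share. Leaving out SGK1 also took out 9 of the 10 GATA2 regions called in both lines. The narrower windows held 7 SMC3 regions, all called in both lines (65.6% of all SMC3 regions were). The interval of that share, 64.6% to 100%, includes the genome-wide share. SGK1 held every SMC3 region called in a single line, so their absence follows from leaving it out.

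WT calls at the leading regions can also be set against the highest background measured at any WT peak of the same window, an alternative chosen after the data were seen. On a background within 20% of that one, the leading GATA2 regions were 3.87 (PEAR1), 5.63 (SGK1), 3.44 (FSCN1), 3.17 (INF2) and 3.12 (F2RL3) times the level at which WT GATA2 calls began. The RUNX1 regions were 7.70 (FAM8A1), 2.99 (F2RL3) and 1.33 (INF2) times that level. At FAM8A1 the highest WT background was 1.73, below the 3.19 at the leading Q592* peak. The value of 7.70 is therefore less strict than the 5.56 found on a background like that in Q592*. The local WT background at the leading regions themselves was not measured, except for RUNX1 at FSCN1.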
